A study of Mus musculus with 8 samples.

Results

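The 10 genes described here encode carriers that move amino acids across the muscle cell membrane or, for Slc3a2, a partner chain of such carriers. These are Slc38a1, Slc38a2, Slc38a3, Slc38a4, Slc7a1, Slc7a2, Slc7a5, Slc7a8, Slc3a2 and Slc43a1. They were picked by symbol, as 10 of the 49315 genes in the count files, after Slc38a4 had been seen to be lower in old than in young muscle. The changes of Slc38a4 with age are therefore given as a description, without a test, and the other 9 are set against it. RNA came from the gastrocnemius, the large calf muscle, of C57BL/6 mice aged 3, 12, 24 or 30 months, with 2 libraries per age. The labels name no genotype, transgene or agent. Nor do they say that both libraries of an age are from different mice, and the p-values here therefore cover library-to-library spread alone.

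Muscle takes up amino acids for protein synthesis and for fuel, and releases glutamine and alanine to the blood. Carriers of system A, named for alanine, bring in small neutral amino acids together with sodium, and the related system N carriers move glutamine. Exchangers made of a light chain and the heavy chain 4F2hc then trade such amino acids for leucine and other large neutral ones, which act on the growth-controlling kinase complex mTORC1. Cationic amino acid transporters bring in arginine and lysine. When amino acids run short, the transcription factor ATF4 raises several of these genes, Slc38a2 among them.

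The libraries held 42404254 to 59245029 counts, and 0 counts of a gene would leave room for 0.0506 to 0.0707 CPM, counting error only. CPM are counts scaled to library size, adjusted here by edgeR's TMM factors. Of 12 skeletal myofibre markers none was at 0 in a library, and their sum was 253292 to 411360 CPM. Kidney transcripts were found in 5 libraries. Summed over 9 kidney genes they came to 37.1 and 13.4 CPM in the pair from 3 months, 4.52 CPM in 12 months replicate 1, 4.31 CPM in 24 months replicate 1 and 3.59 CPM in 30 months replicate 2. The other 3 libraries had 0.779 to 0.877 CPM, and 6 of the 9 genes were at 0 in some library. A difference between evening-phase and Arntl-group clock genes parted the same libraries, at -0.77 to 0.86 in the 5 and 2.75 to 3.30 in the 3 on the log2 scale. Each later age thus holds 1 library of each set, while both libraries of 3 months lie in the set with kidney transcripts, so an effect of the set and one of age against 3 months can be told apart only through the later ages.

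Slc38a1, Slc38a2 and Slc38a4 lie in a row on the minus strand of chromosome 15 of GRCm38, at 96571418 to 96642913, 96687394 to 96699698 and 96994823 to 97055956. Slc38a2 and Slc38a4 are 295 kb apart, with 2 other annotated genes between them that did not pass the low count filter. The sequences before the starts of Slc38a4 and Slc38a2 are shown because these are the 2 most abundant members and the 2 with the lowest values at 30 relative to 3 months. Each is the 250 bases before the RefSeq start (GRCm38.p6, minus strand, 5′ to 3′), at chr15:97055957-97056206 for Slc38a4 and chr15:96699729-96699978 for Slc38a2, with CpG dinucleotides in capitals.
Slc38a4: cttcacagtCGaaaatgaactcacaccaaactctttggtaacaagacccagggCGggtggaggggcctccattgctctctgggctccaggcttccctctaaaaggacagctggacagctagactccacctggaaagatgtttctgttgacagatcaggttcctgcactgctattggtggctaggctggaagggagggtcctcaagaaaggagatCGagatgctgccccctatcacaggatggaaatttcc
Slc38a2: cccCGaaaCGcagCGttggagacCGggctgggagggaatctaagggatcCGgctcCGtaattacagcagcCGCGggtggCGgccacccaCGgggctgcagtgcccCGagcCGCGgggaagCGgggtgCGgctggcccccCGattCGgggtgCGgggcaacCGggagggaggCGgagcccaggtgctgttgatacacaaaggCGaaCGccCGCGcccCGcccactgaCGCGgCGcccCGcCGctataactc

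The Slc38a4 stretch holds 3 CpG dinucleotides at 52.8% G and C, and that of Slc38a2 holds 30 at 72%. The median over 32851 RefSeq windows of that length was 6 CpG. Slc38a4 has 2 further RefSeq starts inside the gene, with 5 CpG before each. Of the 10 genes 6 had an entry, with 9 windows between them. The letters TGATGNAA, an element that ATF4 can bind, were searched on both strands of the 300 bases around each start. They occurred in 0 of these 9 windows and in 3.97% of all windows. With so low a share, 0 of 9 windows does not set these genes apart. Sequence outside the windows, and the genes with no entry, were not searched, so whether these genes have the element was not settled.

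Slc38a4 encodes a sodium-coupled carrier of system A that also moves cationic amino acids. It is known for high expression in liver and, in mouse, for expression from the paternal copy in some tissues. The youngest libraries held 149.8 and 189 CPM, those of 12 months 108 and 110.0 CPM. Levels of 97.1 and 75.4 CPM followed in the 24-month pair, then 72.6 and 58.5 CPM in the oldest. Every library of a later age lay below both libraries of 3 months, and the 2 libraries of 30 months were the lowest of the 8. Means were 169 ± 28, 109 ± 1.4, 86.3 ± 15 and 65.6 ± 9.98 CPM (SD, n = 2). The log2 fold change against 3 months was -0.64 (SE 0.20) at 12 months, -0.97 (SE 0.20) at 24 months and -1.37 (SE 0.20) at 30 months. Its level at 30 months was thus 0.387 of that at 3 months. Between 30 and 12 months the log2 fold change was -0.73 (SE 0.20), and over the 4 ages the slope was -0.047 per month (SE 0.0063).

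Within the set with kidney transcripts, Slc38a4 differed from the mean of 3 months by -0.64 at 12 months, -0.79 at 24 months and -1.52 at 30 months on the log2 scale. The signs against 3 months follow from the lack of overlap. From 12 to 30 months the difference was -0.88 in the set with kidney transcripts and -0.60 in the set without, 1 library against 1 in each. Each 12-month value of Slc38a4 exceeded each 30-month value, so the sign within either set was also given beforehand. The level of Slc38a4 in the library with kidney transcripts relative to the one without differed by -0.03, 0.36 and -0.31 at 12, 24 and 30 months, with no common sign.

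**Figure D1:**
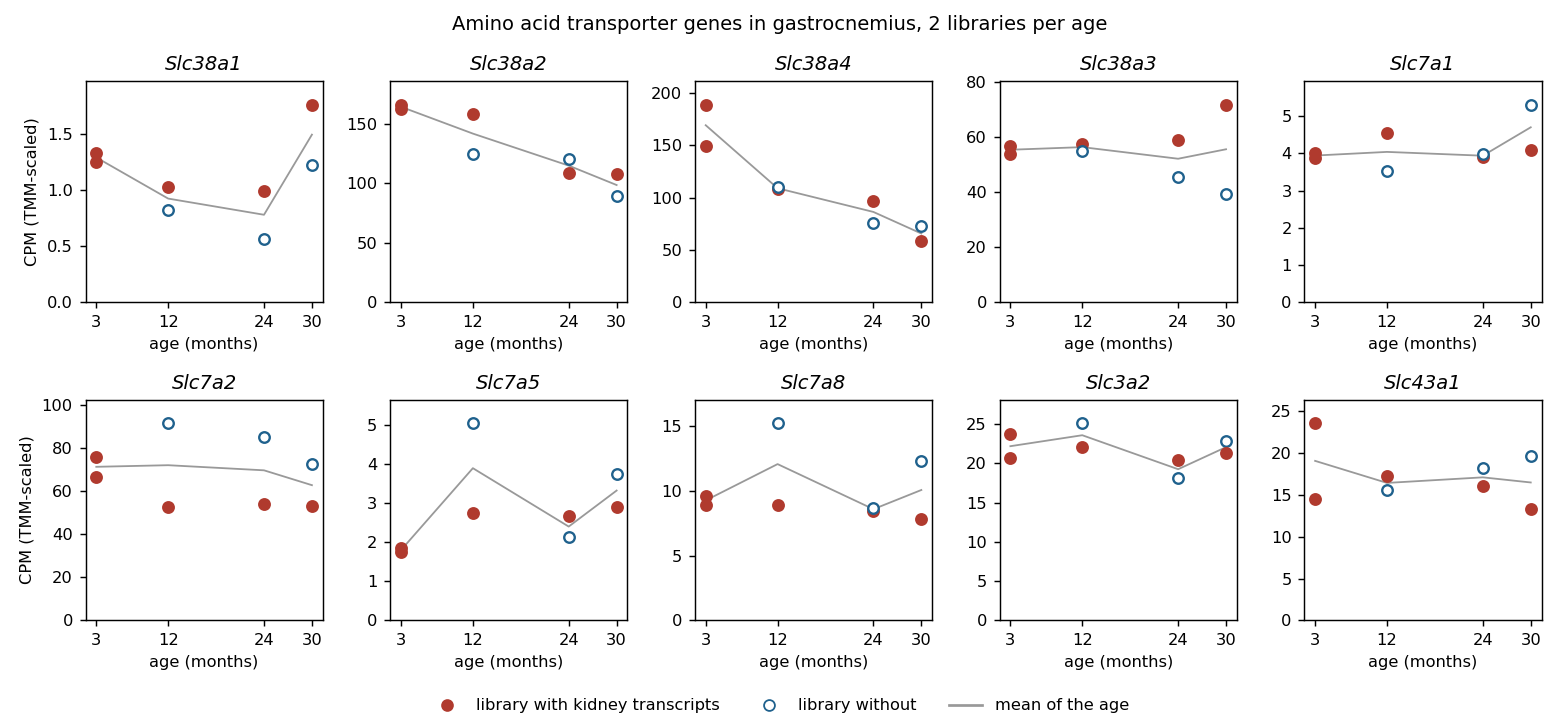
Level of each of the 10 genes in TMM-scaled CPM against age in months, 1 point per library (2 per age), with the mean of each age as a grey line; filled red points are libraries with kidney transcripts and open blue points those without. Slc38a4 declines from 149.8 and 189 CPM at 3 months to 72.6 and 58.5 CPM at 30 months, while for Slc7a2 the library without kidney transcripts is the higher at each later age.

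Slc38a2 encodes the system A carrier that muscle cells raise when amino acids are scarce. The 3-month pair held 166 and 163 CPM and the 12-month pair 159 and 125 CPM. In the 24-month pair it stood at 109 and 121 CPM, in the oldest pair at 89.4 and 107 CPM. Here too all 6 later libraries were below both of 3 months, and those of 30 months were the 2 lowest. The log2 fold change was -0.21 (SE 0.18) at 12 months, -0.52 (SE 0.18) at 24 months and -0.74 (SE 0.18) at 30 months. The last did not pass edgeR's quasi-likelihood test over all genes (adjusted p = 0.223, unadjusted p = 0.0024, 95% interval -1.14 to -0.34). DESeq2 gave an adjusted p of 0.0292 and edgeR with no low count filter 0.0236, and limma-voom 0.231. From 12 to 30 months the log2 fold change was -0.53 (SE 0.18, adjusted p = 0.838 in edgeR). As a slope it changed by -0.027 per month (SE 0.0053, adjusted p = 0.0772 in edgeR), which passed with DESeq2 (adjusted p = 0.000323), with no low count filter (0.0385) and with a library-set term (0.0354). Over 12, 24 and 30 months alone, the slope was -0.029 per month and did not pass in edgeR (adjusted p = 0.907).

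Slc38a1, also a system A carrier, was the least expressed member, with 29 to 94 counts per library. By age, from youngest to oldest, its pairs of libraries held 1.25 and 1.33 CPM, 1.03 and 0.819 CPM, 0.996 and 0.565 CPM, then 1.23 and 1.77 CPM. The libraries of 12 and 24 months lay below both of 3 months, and so did replicate 1 of 30 months, while replicate 2 was the highest of the 8. Log2 fold changes against 3 months were -0.48, -0.73 and 0.21 at the 3 later ages, with SE of 0.33 to 0.34. Between 30 and 12 months it was 0.70 (SE 0.34, adjusted p = 0.956 in edgeR). Its 24-month mean was below that of 12 months, as for every other member except Slc43a1. Unlike for Slc38a2 and Slc38a4, its 30-month pair stood above the 12-month one.

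Slc38a3 encodes a system N carrier of glutamine that is also abundant in kidney and liver. In order of age the pairs stood at 56.8 and 54.0 CPM, 57.6 and 55.1 CPM, 58.8 and 45.4 CPM, then 39.3 and 71.8 CPM. The lowest and the highest value of the 8 were thus the 2 libraries of 30 months, and the ages overlapped. Its log2 fold change between 30 and 3 months was 0.01 (95% interval -0.57 to 0.58). In each later age the library with kidney transcripts was the higher one, by 0.06, 0.37 and 0.87 on the log2 scale, and whether these transcripts account for that was not tested. The 2 libraries with most kidney transcripts, those of 3 months, were near the median of 56.0 CPM. Slc38a1 was also the higher in that set at each later age, and no other member was.

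Of the light chains that pair with 4F2hc, Slc7a5 (LAT1) carries leucine and other large neutral amino acids. Pairs in order of age held 1.86 and 1.74 CPM, 2.75 and 5.05 CPM, 2.66 and 2.14 CPM, then 3.75 and 2.89 CPM. The 2 libraries of 3 months were the lowest of all 8, with 86 and 94 counts. Log2 fold changes were 1.11 (SE 0.31, adjusted p = 0.693), 0.42 (SE 0.31, adjusted p = 0.779) and 0.88 (SE 0.31, adjusted p = 0.446) at 12, 24 and 30 months in edgeR, none of which passed. With no low count filter the difference at 12 months did (adjusted p = 0.0204). Replicate 2 of 12 months gave the highest value, and without it the log2 fold change at 12 months was 0.60.

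Slc7a8 (LAT2), the other light chain, held 8.90 and 9.60 CPM in the youngest pair and 7.85 to 15.2 CPM in later ones, with its 2 highest values in replicate 2 of 12 months and replicate 1 of 30 months. The heavy chain gene Slc3a2 varied least of the 10, from 18.1 to 25.1 CPM, a ratio of 1.39. Its log2 fold change between 30 and 3 months was -0.01 (95% interval -0.34 to 0.32). Slc43a1 (LAT3), which lets large neutral amino acids through without sodium or a partner chain, ran from 13.3 to 23.6 CPM. Its second highest library was replicate 1 of 30 months, at 19.6 CPM, and the 2 libraries of 3 months, 14.6 and 23.6 CPM, spanned nearly the whole range. Log2 fold changes at 30 months were 0.12 for Slc7a8 (95% interval -0.50 to 0.74) and -0.21 for Slc43a1 (-0.77 to 0.35).

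Among the cationic carriers, Slc7a2 (CAT2) had 75.9 and 66.7 CPM in the youngest pair, then 52.5 and 91.6 CPM, 54.2 and 85.2 CPM and, in the oldest pair, 72.5 and 53.1 CPM. At each later age the library without kidney transcripts was the higher, by 0.80, 0.65 and 0.45 on the log2 scale. Slc7a8 was the only other member higher in that library at all 3 ages, by 0.77, 0.04 and 0.64. The log2 fold change of Slc7a2 at 30 months was -0.18 (SE 0.30) and, given library set as a term, -0.52 (SE 0.15, adjusted p = 0.11 in edgeR). Kidney transcripts and clock genes part the libraries alike, and their shares in this split cannot be told apart. An antisense noncoding gene, Gm26584, shares up to 635 exon bases with Slc7a2 and held 913 counts over the 8 libraries against 27839 for Slc7a2. Slc7a1 (CAT1), the widely expressed arginine carrier, was at 3.53 to 5.31 CPM. Its log2 fold change at 30 months was 0.25 (95% interval -0.22 to 0.73).

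**Figure D2:**
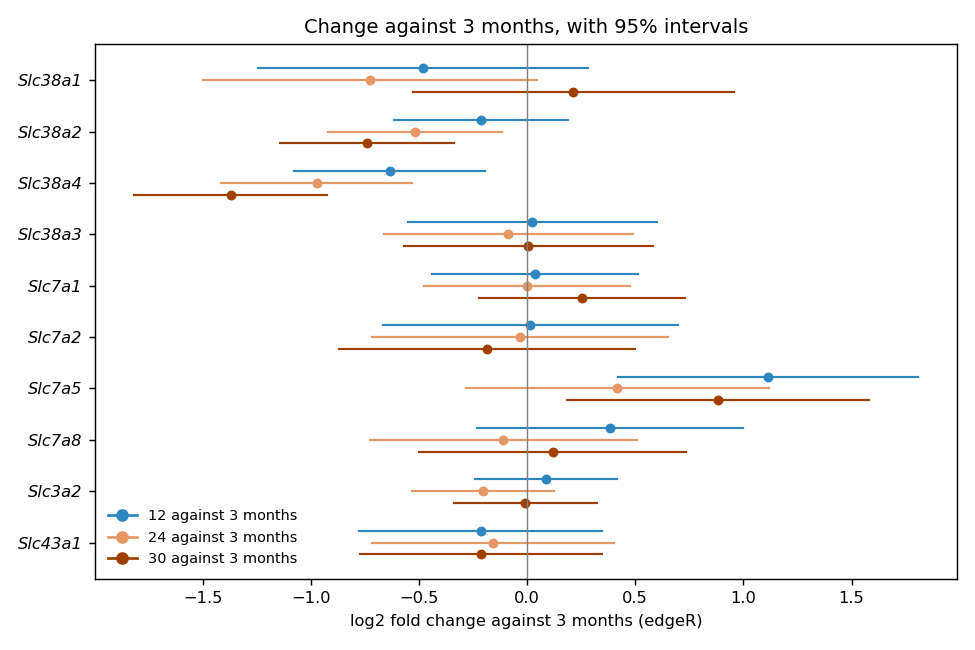
Log2 fold change against 3 months for each of the 10 genes at 12 (blue), 24 (light orange) and 30 months (dark orange), with 95% intervals from edgeR as lines (8 libraries, 2 per age). Slc38a4, chosen for its lower level with age and shown as a description, is at -0.64, -0.97 and -1.37. Among the other 9 the intervals of Slc38a2 at 24 and 30 months lie below 0, those of Slc7a5 at 12 and 30 months lie above it, and the rest include it.

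In edgeR's quasi-likelihood test, 0 of the other 9 members passed an adjusted p of 0.05 between 30 and 3 months, against 0.148% of the 19571 genes tested. Unadjusted p-values under 0.05 were found for 2, Slc38a2 and Slc7a5, against 8.52% of all genes, and the intervals of 7 included 0. DESeq2 called 1 of the 9, Slc38a2, and 1.09% of all genes. In edgeR 0 of the 9 passed at 12 months (0.0409% of all genes), at 24 months (0.102%), between 30 and 12 months (0.00511%), across the 4 ages (0.0613%) or as a slope (0.133%). At an unadjusted p under 0.05 there was 1 at 12 months, Slc7a5, against 5.5% of all genes, and 1 at 24 months, Slc38a2, against 7.56%. Slc38a2 was also the 1 such member between 30 and 12 months, against 5.21%. There were 2 such members across the ages, against 5.66%, and 1 for the slope, against 9.83%. With the library set as a term 2.13% of all genes passed between 30 and 3 months and 1.47% as a slope, among them the slope of Slc38a2. Slc38a4 was lower without overlap in all 4 comparisons of 2 ages, which its choice made likely, so overlap is counted over the other 9. Between 30 and 3 months the libraries did not overlap for 3 of the 9 and 41.2% of all genes, 2 members higher (21.1% of genes) and 1 lower (20.2%). At 24 months 1 of the 9 was higher without overlap and 4 were lower, against 20% and 19.4% of genes, and 5 against 39.4% in all. At 12 months 1 was higher and 2 were lower, against 19.3% and 19.2%, and 3 against 38.5% in all. Between 30 and 12 months 1 was higher and 1 lower, against 16.1% and 15.7%, and 2 against 31.8% in all. The median log2 fold change of the 9 at 30 months was 0.01, and that of all tested genes 0.01. In simulated counts the test called 26.0% of genes changed 2-fold and 4.0% of those changed 1.5-fold between 30 and 3 months. It called 68.7% of those changed 4-fold and 84.7% of those changed 8-fold, with at most 15 unchanged genes called in a run. The changed genes were drawn from all tested genes whatever their counts, so these shares are not those of a given member.

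Within each library Slc38a4 was set against the other members as a log2 ratio of CPM, which shows the same difference free of the scaling between libraries. Against Slc38a2 the ratios in order of age were -0.15 and 0.22, -0.55 and -0.18, -0.17 and -0.68, then -0.30 and -0.88. The 2 libraries of 30 months were below both of 3 months. Against Slc3a2 it went from 2.85 and 2.99 at 3 months to 1.66 and 1.46 at 30 months, and against Slc7a5 from 6.30 and 6.73 to 4.26 and 4.32. For all 9 partners the ratios of 30 months lay below those of 3 months, with mean differences from -0.62 for Slc38a2 to -2.23 for Slc7a5. Slc38a4 enters each of these ratios, so they are not separate observations, and its choice fixed their direction.

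**Figure D3:**
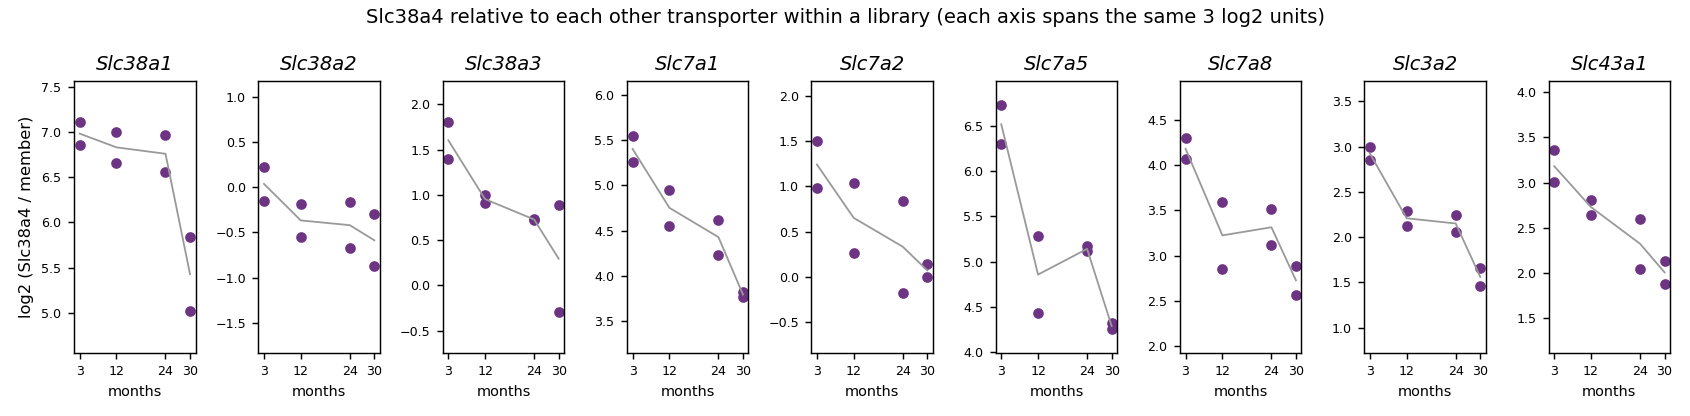
Log2 ratio of Slc38a4 to each of the other 9 genes within a library against age in months, 1 point per library, with the mean of each age as a grey line; each vertical axis spans the same range. The drop from 3 to 30 months is smallest against Slc38a2 (-0.62) and largest against Slc7a5 (-2.23).

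Compared per kb of the deposited gene length, the 10 genes spanned a wide range of levels. Slc38a2 had a mean of 28.1 ± 6.3 CPM per kb over the 8 libraries (SD) and Slc38a4 27.2 ± 11. Each was above the other in 4 of the 8 libraries, and the order turned with age. Per kb Slc38a4 was above Slc38a2 in both libraries of 3 months (means 42.9 and 35.5 CPM per kb) and below it in both of 30 months (16.6 and 21.3 CPM per kb). Slc38a3 followed at 10.4 ± 1.8, below Slc38a4 in every library, then Slc7a2 at 7.55 ± 1.6 and Slc3a2 at 6.17 ± 0.62 CPM per kb. Slc38a3 exceeded Slc7a2 in 6 of 8 libraries and Slc7a2 exceeded Slc3a2 in 6 of 8, with overlapping ranges. Slc43a1 at 3.02 ± 0.57 and Slc7a8 at 2.47 ± 0.62 also overlapped. The light chain Slc7a5, at 0.770 ± 0.30 CPM per kb, lay below its heavy chain in every library. Slc7a1 at 0.361 ± 0.047 and Slc38a1 at 0.134 ± 0.043 were the lowest, and neither overlapped its neighbours in that order.

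**Figure D4:**
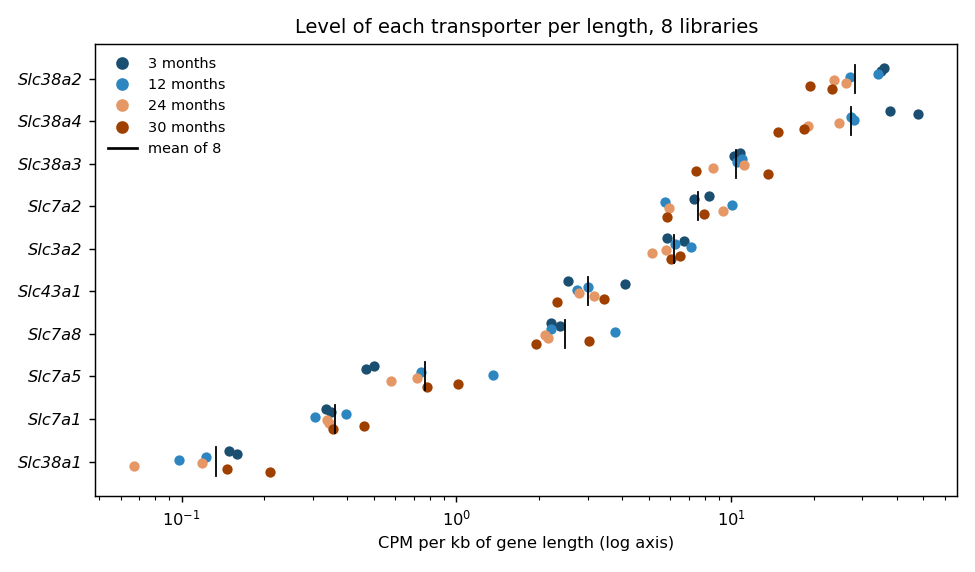
Level of each of the 10 genes in CPM per kb of gene length on a log axis, ordered by mean, 1 point per library coloured by age, with the mean of 8 libraries as a black bar. Slc38a2 and Slc38a4 share the top with means of 28.1 and 27.2, and Slc38a1 is lowest at 0.134.

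Among the cell types that bulk muscle holds, summed levels of marker lists also moved with age. In such samples fewer cells of a type and less RNA per cell cannot be told apart. The 8 fibroblast and fibroadipogenic progenitor markers, none at 0 in a library, summed, in order of age, to 1756 and 1934 CPM, 1547 and 767 CPM, 951 and 681 CPM, then 875 and 1009 CPM. All 6 later libraries were below both of 3 months, as for Slc38a4 and Slc38a2, though 30 months was not the lowest age. The 9 slow myofibre markers ran the other way, from 856 and 541 CPM at 3 months to 1719 and 2947 CPM at 30 months. At each later age both sums were higher in the library with kidney transcripts, and both libraries of 3 months belong to that set. The part of library set in these changes with age was not tested. Satellite cell markers summed to 46.6 to 60.8 CPM and endothelial markers to 171 to 245 CPM over the 8 libraries, with overlapping ages. The part of these cell types in the levels of the transporters was not tested. Liver, the organ known for Slc38a4, had 6 markers that summed to at most 3.00 CPM, with 4 of them (Apoa1, Ttr, Serpina1c and Tat) at 0 in at least 1 library. Their sums were 3.00 and 0.890 CPM in the libraries of 3 months and 0.273 to 0.701 CPM in the 6 later ones. The part of liver transcripts in the level of Slc38a4 was not tested.

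Other amino acid transporters of the cell membrane numbered 38, of which 27 passed the low count filter. Between 30 and 3 months 1 rose and 0 fell in edgeR, where 0.123% of all genes rose and 0.0255% fell, 9 had an unadjusted p under 0.05 (8.52% of all genes did), and their median log2 fold change was -0.08. The gene that rose was Slc6a17, which encodes a carrier of neutral amino acids known from synaptic vesicles. It was counted in this list and not with the carriers of vesicles below, so the 1 call here depends on where it is placed. Slc6a17 had a log2 fold change of 2.07 between 30 and 3 months (SE 0.26, adjusted p = 0.0256 in edgeR). Its pairs in order of age held 1.32 and 0.815, 2.28 and 2.34, 3.504 and 3.39, then 4.11 and 4.83 CPM. Its libraries of 30 months were above all others. Slc6a7, a proline carrier, had a log2 fold change of 1.95 (adjusted p = 0.234) and Slc43a2 (LAT4), which carries branched-chain amino acids, 0.73 (adjusted p = 0.284). With the library set as a term, these 3 of the 27 passed, all higher, as did 2.13% of all genes in either direction. Slc3a1, the heavy chain of the kidney cystine carrier, had a log2 fold change of -2.99 (adjusted p = 0.278). It was at 1.49 and 0.463 CPM in the 3-month pair, whose kidney sums were 37.1 and 13.4 CPM, and at 0.0220 to 0.234 CPM in the later libraries. Of the later pairs the library with kidney transcripts was the higher at 12 and 30 months, but not at 24 months (0.0957 against 0.0974 CPM), and the part of these transcripts in its level was not tested.

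Transporters of lysosomes, vesicles and mitochondria numbered 25, with 21 tested. Between 30 and 3 months 0 were called either way in edgeR, against 0.148% of all genes. At an unadjusted p under 0.05 there were 5, against 8.52% of all genes, and the median was 0.03. Slc6a17, described above, was not counted here. With the library set as a term 1 of the 21 was called, against 2.13% of all genes. This was Slc17a8, which had 0 counts in 1 library and at most 0.451 CPM. The lowest p-values were those of Slc25a29, a mitochondrial carrier of basic amino acids (log2 fold change 0.77, adjusted p = 0.205), Slc17a8 (0.293), the mitochondrial ornithine carrier gene Slc25a15 (-0.48, adjusted p = 0.309) and the mitochondrial glutamate carrier gene Slc25a22 (0.68, adjusted p = 0.523). Slc25a15 was at 19.8 and 18.9 CPM at 3 months and at 13.2 to 16.5 CPM in the 6 later libraries, which did not overlap.

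Of 26 tested ATF4 and amino acid response genes 0 passed at 30 against 3 months in edgeR, where 0.148% of all genes did. In this list 6 had an unadjusted p under 0.05, where 8.52% of all genes did, and the median log2 fold change was 0.03. Trib3, a pseudokinase gene induced by ATF4, had 1.03 (SE 0.29, adjusted p = 0.309), the stress transcription factor gene Ddit3 0.48 (adjusted p = 0.452) and Cebpg -0.38 (adjusted p = 0.458). Trib3 had 0.540 and 0.593 CPM in the youngest pair of libraries, 1.21 and 1.11 CPM in the oldest. Of 36 tested genes that pass amino acid supply on to mTORC1, 0 passed, against 0.148% of all genes. The list had 1 gene at an unadjusted p under 0.05, against 8.52% of all genes, and a median of -0.04. Its lowest p-value was that of Sesn3, a sestrin (0.42, adjusted p = 0.542), followed by the mTORC1 subunit gene Rptor (0.26) and Tbc1d7 (-0.28), both at an adjusted p of 0.717.

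Of 26 genes of glutamine and branched-chain amino acid metabolism 0 passed in edgeR, against 0.148% of all genes. At an unadjusted p under 0.05 there were 4, against 8.52% of all genes, and the median was -0.02. Bcat1, the cytosolic branched-chain aminotransferase, had the lowest p of these (log2 fold change -1.93, SE 0.45, adjusted p = 0.208). It was at 0.605 and 0.649 CPM at 3 months and at 0.0766 to 0.198 CPM later. Once library set was a term it passed in edgeR (adjusted p = 0.04), as did 2.13% of all genes. Ppm1k, the phosphatase that turns on branched-chain keto acid breakdown, had 0.49 (adjusted p = 0.468), and Ivd, of leucine breakdown, 0.39 (adjusted p = 0.569). With the library set as a term 1 gene of the ATF4 list and 0 of the mTORC1 list were called, against 2.13% of all genes. The 1 gene was the alanine aminotransferase gene Gpt2, which was lower. Gpt2 was named after its values were seen.

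**Figure D5:**
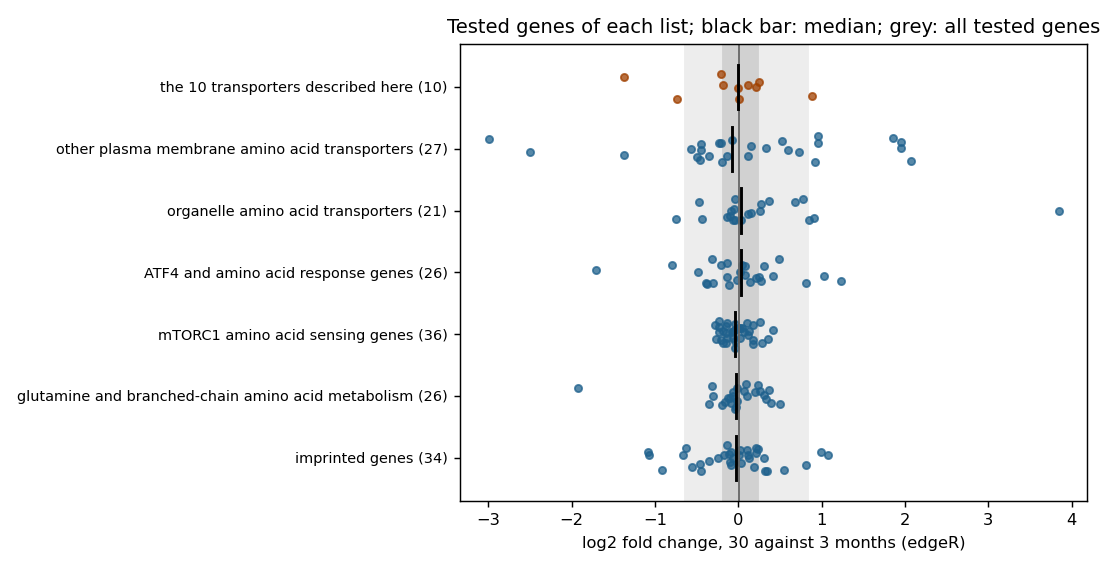
Log2 fold change between 30 and 3 months (edgeR) of the 10 transporters and of the tested genes of 6 further lists, 1 point per gene with the number of genes in brackets and the median as a black bar; vertical jitter has no meaning. The grey line is the median of all 19571 tested genes and the dark and light bands run over percentiles 25 to 75 and 5 to 95; every list's median is between -0.08 and 0.03.

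The window of 500 kb to each side of Slc38a4 held 8 annotated genes with Slc38a4 itself, and 4 of the others passed the low count filter. Slc38a1 and Slc38a2 are described above. On the other side, Amigo2, an adhesion protein gene, had a log2 fold change of -0.62 at 30 months (SE 0.29, adjusted p = 0.615 in edgeR), and Pced1b had 0.58 (SE 0.33, adjusted p = 0.70). Amigo2 was at 4.45 and 2.80 CPM at 3 months and at 1.80 to 2.87 CPM later, with an overlap at 30 months. The annotations of Amigo2 and Pced1b overlap on opposite strands. None of the 4 passed in any comparison of 2 ages in edgeR. Of 34 tested imprinted genes other than Slc38a4, 0 passed at 30 against 3 months in edgeR, against 0.148% of all genes. At an unadjusted p under 0.05 there were 6, against 8.52% of all genes, and the median was -0.03. The 3 with the lowest p were the noncoding genes Rian (-1.07, adjusted p = 0.0605), Meg3 (-0.92, adjusted p = 0.226) and Mirg (-1.09, adjusted p = 0.231), which are read from the maternal copy of 1 cluster on chromosome 12. Rian was at 14.1 and 13.3 CPM at 3 months and at 5.36 to 7.32 CPM in all later libraries. Its 30-month pair (5.86 and 7.16 CPM) overlapped those of 12 and 24 months, while for Slc38a4 12 and 30 months did not overlap. The 12-month pair of Rian (7.32 and 6.47 CPM) lay above its 24-month pair (6.05 and 5.36 CPM). Rian fell between 24 and 3 months (log2 fold change -1.26, SE 0.17, adjusted p = 0.0472 in edgeR), the 1 imprinted gene of the 34 called there. With the library set as a term 4 of the 34 were called between 30 and 3 months, 2 higher and 2 lower, Rian and Meg3 among them, and 2.13% of all genes.

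The genes most like Slc38a4 over the 8 libraries were found by Pearson's r of log2 CPM among 9582 genes. They were Mrln, which encodes the muscle micropeptide myoregulin that holds back the calcium pump (r = 0.961), Pdzd7 (0.958), Ppic, a cyclophilin gene (0.947), Dnmt3a, a DNA methyltransferase gene (0.944), and Dcun1d3 (0.941). Mrln went from 47.4 and 53.2 CPM at 3 months to 35.8 and 25.8 CPM at 30 months. Among the members r was 0.82 for Slc38a2 and between -0.46 (Slc7a5) and 0.42 (Slc43a1) for the rest. These r are descriptions over 8 libraries that share age, library set and scaling, and the top of 9582 genes is high by selection.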

How the data were processed

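The authors deposited unnormalized read counts for each Ensembl gene, made from Trizol-extracted total RNA and NEBNext Ultra libraries, per the labels' protocols. The submitters' processing notes list Trimmomatic 0.36, STAR 2.5.2b, featureCounts and Subread 1.5.2 but give no roles. Annotation release, strand setting and treatment of multiply mapped reads were not given in the sources used here. Symbols come from GENCODE M21 (GRCm38), which matched 49056 of 49315 identifiers, and promoter sequences from RefSeq (GRCm38.p6).

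Tests used edgeR 4.0.16 under R 4.3.3. After filterByExpr by age 19571 genes remained, all 10 members among them. Libraries were scaled by TMM, and a quasi-likelihood model with robust spread held the 4 ages over all 8 libraries (4 residual degrees of freedom). A separate model had age in months as a slope. Calls had a Benjamini-Hochberg adjusted p under 0.05 over all tested genes. A standard error is the size of a log2 fold change over the root of its F statistic. Log2 CPM of single libraries used a prior count of 2. Library sets were split at 1 CPM in the sum of 9 kidney genes.

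The members, lists, tests and alternatives were chosen with earlier results of these data known. Named genes are the 10 members, the lowest p-values at 30 against 3 months in each list (4 per transporter list, 3 per other list), tested neighbours within 500 kb of Slc38a4, and the 5 genes most like it with a mean log2 CPM of at least 2, leaving out clone and predicted names. Alternatives were RLE size factors, library totals, no filter, 1 CPM in 2 libraries, DESeq2 1.42.0, limma-voom (limma 3.58.1), a replicate block, the library set as a term, only the 4 libraries compared, and each library left out; 12, 24 and 30 months only was added after seeing the data. The model was tested on simulated negative binomial counts in 3 runs, with 150 changed genes of each fold size in all.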

Additional observations from a re-analysis of the deposited data

How the results depend on the processing

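Of 765 values of the 9 members other than Slc38a4 under alternatives, 697 kept sign and side of the threshold, 62 changed sign, none of them of Slc38a2, and 6 gained a call. These 9 had 0 calls to lose. Slc38a4 was followed without a test and kept its sign in 85 of 85 values. Its choice and its lack of overlap between ages made a change of sign unlikely beforehand, so this count is no measure of robustness. Slc38a4 between 30 and 3 months stayed between -1.54 and -1.19 on the log2 scale, and its slope was -0.039 per month over 12, 24 and 30 months alone. Counts of all genes called depended on the setting, in the order 12, 24 and 30 against 3 months, 30 against 12 months, across ages and slope: 8, 20, 29, 1, 12 and 26 as reported, 134, 233, 378, 139, 469 and 107 with no low count filter, 65, 135, 214, 62, 231 and 298 with DESeq2, and 29, 71, 416, 55, 203 and 288 given library set as a term. With the replicate block they were 5, 9, 13, 0, 8 and 21. The labels do not say that replicate numbers pair the libraries. Correlations of replicate deviations between ages ran from -0.357 to 0.262. Library set is tied to replicate number in a different way at 30 months than at 12 and 24 months, so these correlations cannot settle whether libraries are paired. Library totals alone gave 13 at 24 months and 3 for 30 against 12 months. A minimum of 1 CPM gave 10 at 24 months, 19 at 30 months and 0 for 30 against 12 months, and limma-voom 10 at 24 months and 8 across ages. Only the 4 libraries compared gave 12 at 12 months, 46 at 24 months and 0 for 30 against 12 months. Over 12, 24 and 30 months alone 0 genes were called across ages or as a slope. Leaving out each library gave 4 to 14, 5 to 33, 10 to 52, 0 to 10, 4 to 52 and 5 to 74. Members near 0 between 30 and 3 months changed sign. For Slc38a3 the value was -0.00090 with RLE size factors, -0.0010 with DESeq2, -0.063 with limma-voom and -0.0085 with the replicate block, for Slc7a8 -0.16 given library set as a term, and for Slc3a2 0.022 with library totals alone. Leaving out each library gave -0.070 to 0.45 for Slc38a1, -0.49 to 0.37 for Slc38a3, -0.43 to 0.027 for Slc7a2, -0.24 to 0.41 for Slc7a8, -0.11 to 0.10 for Slc3a2 and -0.52 to 0.18 for Slc43a1. The cause was not tested. The least covered members had 29 counts (Slc38a1) and 86 counts (Slc7a5) in their lowest library, and the part of depth in their spread was not tested.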
